A study of Mus musculus with 9 samples.

Results

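The response to tamoxifen within a single clone of mouse embryonic stem (ES) cells was examined from 6 microarrays, 3 of cells given tamoxifen (Tmx+, induced) and 3 of cells without it (Tmx-, uninduced), out of 9 arrays in the series. All 6 came from clone #18 of the ES line V6.5, a male hybrid of C57Bl/6 and 129, which carries the transgene pCAG-Zscan4-ERT2, and all were cultured for 2 days with LIF. The induced cells received 200 nM tamoxifen. The other 3 arrays came from clone #2 of the same line, a transfection control cultured for 3 days with LIF, with no tamoxifen stated, and they serve here only as a level to compare with. The groups were taken from the labels, which leave unstated if each replicate was a culture of its own, so that the p-values measure the spread between these arrays, which may be technical. The induced and uninduced cells are 1 clone, and no array held control cells with tamoxifen, so that effects of the drug and of the activated fusion protein cannot be told apart.

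Zscan4 genes encode zinc finger proteins that are expressed in the 2-cell embryo and, in culture, in a small and changing part of ES cells, where they are known for their link to telomere lengthening and genome stability. In the fusion protein, Zscan4 is joined to ERT2, a mutated ligand-binding domain of the estrogen receptor that holds its partner inactive until tamoxifen binds. The CAG promoter in front of the fusion is a strong promoter active in most cell types.

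On each array the sample was labelled with Cy3 and a common reference with Cy5. The reference was RNA pooled from 11 cell lines and mixed with ES cell RNA at 2 parts to 1. Levels are given as M, which is log2 of the sample signal over the reference signal, so that a difference of 1 is 2-fold. Mean Cy3 intensity was 1243 to 2151 on the 9 arrays, against a local background with a median of 43 to 47. A probe was tested where the 3 arrays of any group all had it well above background, which kept 24758 of 42006 probes. Tmx- replicate 1 stood apart from the other uninduced arrays, with a residual SD of 0.121 against 0.0504 to 0.0777 on the other 8 arrays. It lay on another slide than the remaining uninduced arrays and at position 4, as did Tmx+ replicate 2. The deviations of these arrays from their group means correlated at 0.45 across probes, which are not independent replicates. Both were also the brightest arrays, with mean Cy3 of 2122 (Tmx- replicate 1) and 2151 (Tmx+ replicate 2). The others had 1243 to 1736, so that position and signal level cannot be told apart. All 3 control arrays lay on the slide of Tmx- replicate 1, which held no induced array.

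The files give probes of 60 bases by ID and pair none with a gene. Probes were therefore named here by an exact match to the RefSeq promoter windows of GRCm38.p6, which run from before to just after each gene start and often overlap the end of a neighbouring gene. This placed 441 probes at 1 position, and 278 of them lay in the span of a single gene on their own strand, giving 272 genes. The table does not say whether a position is exonic, intronic or in a UTR, and matches elsewhere in the genome were not searched. Of the 489 genes on the lists drawn up for ES cells, the 2-cell state, differentiation and stress, 3 were placed and 1 could be tested, the chaperonin gene Hspd1. Its log2 change was -0.05 (SE 0.07, limma adjusted p = 0.609). The levels of Zscan4 and of the markers that define ES cells could not be read, so that neither the labels nor the induction was checked on its own target.

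Tamoxifen was followed by many small changes and few large ones. Of the tested probes 38.2% passed the test (limma, Benjamini-Hochberg adjusted p below 0.05), with 5204 higher and 4260 lower in induced cells. The changes were under 1.5-fold at 87.6% of the called probes. At least 2-fold, 105 probes were higher and 198 lower, 0.424% and 0.8% of those tested. These counts depended on the processing. There were 197 higher with offset 10 in the background correction in place of 50, 285 higher and 600 lower with Agilent's processed signals, and 337 and 398 in the deposited value table. The size of the response was alike on the 3 induced arrays. Measured from the uninduced mean, the median over the 105 raised probes was 1.15, 1.16 and 1.16 on the log2 scale, and the median over the 198 lowered probes was -1.31, -1.31 and -1.28, although these values come from the arrays that chose the probes. When the ratio of Agilent's processed signals was used, 30.5% of the calls were higher, against 55% here, with 2651 higher and 6029 lower probes. Those ratios were centred on the median of each array's spots. Their median log2 change over the tested probes was -0.09, against 0.01 here. Median centring in place of loess gave a median of 0.01, with 56.7% of the calls higher. The cause of the shift with Agilent's processed signals was not tested. Slide 2 alone, with 2 induced and 2 uninduced arrays, gave 5626 rises and 4311 falls, and past 2-fold 135 rises and 179 falls.

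**Figure D1:**
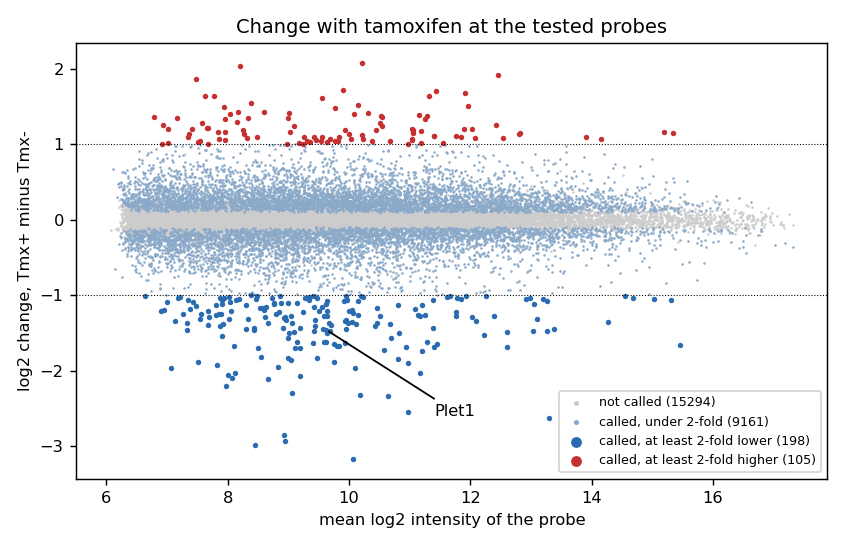
Each point is a tested probe, with its mean log2 intensity on the x axis and its log2 change from uninduced to induced cells on the y axis. Called probes under 2-fold lie on both sides of 0 at all intensities, and the 198 probes at least 2-fold lower reach -3.16, farther from 0 than the 105 at least 2-fold higher, which reach 2.07.

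At the probes changed at least 2-fold, which were chosen by their ratio, the Cy3 channel moved with the ratio. Across the 105 raised probes, the Cy3 channel, which carries the sample RNA, differed by a median of 1.18 on the log2 scale and the Cy5 channel by -0.02. Across the 198 lowered probes the medians were -1.35 in Cy3 and -0.04 in Cy5. The Cy3 channel had the same sign as the ratio at 105 of 105 and 198 of 198 probes. Over all tested probes the median absolute difference between the groups was 0.13 in Cy3 and 0.05 in Cy5, so that the reference channel also differed somewhat between arrays, and Cy3 without the reference called 1165 probes higher and 1310 lower.

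The probes with the largest changes are shown by sequence, since they carry no gene name. The first pair rose and the second pair fell.
Z00015795-1: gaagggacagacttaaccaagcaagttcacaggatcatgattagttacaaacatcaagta
Z00003224-1: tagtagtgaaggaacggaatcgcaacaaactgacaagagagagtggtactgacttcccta
Z00027744-1: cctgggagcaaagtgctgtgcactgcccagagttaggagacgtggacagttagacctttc
Z00010943-1: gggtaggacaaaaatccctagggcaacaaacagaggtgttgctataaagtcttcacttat

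At Z00015795-1 the uninduced arrays had M of -1.73, -1.98 and -1.89 and the induced arrays 0.17, 0.23 and 0.21. The control clone, at -2.0, -1.87 and -1.67, spread around the uninduced level, and all 3 induced arrays lay above both groups. The log2 change was 2.07 (SE 0.08, limma adjusted p = 1.19e-07). Its raw Cy3 intensity was 245 to 449 in uninduced and 1241 to 1909 in induced cells, while its Cy5 intensity spanned 1555 to 2602 over both groups.

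Z00003224-1 took a different course relative to the control clone. Its M was -0.39, -0.45 and -0.46 in uninduced cells and 1.57, 1.61 and 1.62 in induced cells (log2 change 2.03, SE 0.05, limma adjusted p = 6.39e-09). The control arrays, at 1.03, 1.1 and 1.21, lay between the groups, so the uninduced clone was below the control level and the induced clone above it.

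At Z00027744-1 the uninduced arrays had M of 0.20, 0.06 and 0.08 and the induced arrays -3.15, -3.17 and -2.83. The control arrays, at -0.15, -0.11 and -0.15, lay just below the uninduced arrays. The log2 change was -3.16 (SE 0.08, limma adjusted p = 8.26e-09), and the probe remained well above background on all 3 induced arrays. Z00010943-1 fell from 0.67, 0.43 and 0.51 to -2.59, -2.60 and -2.13, with the control arrays in between at -0.20, -0.23 and -0.15. It was well above background on only 1 induced array, so that the size of its fall and its place among the falls are uncertain. The log2 change was -2.98 (SE 0.12, limma adjusted p = 9.69e-08), and it was -3.89 with offset 10 and -5.38 with Agilent's processed signals.

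**Figure D2:**
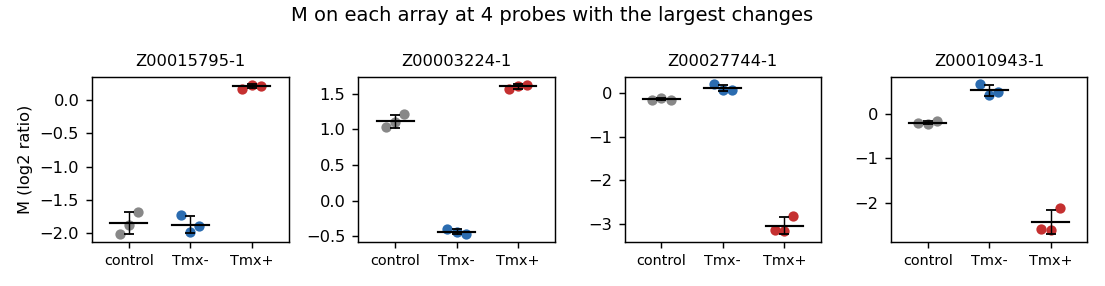
M of 4 probes on each of the 9 arrays, with points for arrays, lines for the mean and bars for the SD (n = 3 per group). The induced arrays lie above all others at the 2 rising probes and below all others at the 2 falling ones.

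Probes of nearly the same sequence, which may read 1 transcript or close relatives, give a second reading of a change, though not an independent one. With 85% identity over 40 bases of the same strand as the minimum, 1185 tested probes formed 524 families. In 7 families, of 14 probes in all, every member fell at least 2-fold, and in 2 families, of 5 probes in all, every member rose at least 2-fold. Of all tested probes, 0.8% fell and 0.424% rose at least 2-fold. A single family held called members of both directions, of 204 with at least 2 called members. The pair with the largest fall and the pair with the largest rise are printed next, with capitals marking the longest run of bases that both members share.
First member of the falling pair: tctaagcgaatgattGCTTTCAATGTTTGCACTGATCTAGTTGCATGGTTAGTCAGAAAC
Second member of the falling pair: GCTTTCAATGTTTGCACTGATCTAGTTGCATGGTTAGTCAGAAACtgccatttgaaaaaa
First member of the rising pair: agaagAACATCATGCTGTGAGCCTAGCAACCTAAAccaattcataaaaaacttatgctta
Second member of the rising pair: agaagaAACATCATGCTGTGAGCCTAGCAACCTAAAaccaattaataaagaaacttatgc

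The members of the falling pair share 45 bases and behaved alike. The first had M of 0.72, 0.82 and 0.67 in uninduced cells and -2.20, -2.20 and -2.19 in induced cells. The second had 0.69, 0.73 and 0.63 in uninduced cells and -2.32, -2.10 and -2.07 in induced cells. The control clone had 0.58 to 0.70 on both, near the uninduced level. The log2 changes were -2.93 (SE 0.05, limma adjusted p = 1.18e-09) and -2.85 (SE 0.07, limma adjusted p = 4.86e-09).

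The members of the rising pair share a run of 30 bases. The first had M of 2.16, 1.77 and 1.72 in uninduced and 3.40, 3.75 and 3.41 in induced cells, and the second had 2.50, 2.10 and 1.70 and then 3.67, 3.98 and 3.59. The induced arrays lay above all uninduced arrays on both. The control clone was at 1.46 to 1.89, mostly below the uninduced arrays. The log2 change was 1.64 for each, with SE 0.12 (limma adjusted p = 6.71e-06) and SE 0.19 (limma adjusted p = 0.000109).

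The other rising family had 3 members, with log2 changes of 1.1 to 1.11. Their sequences share the 43 bases in capitals.
Member 1 of the rising family of 3: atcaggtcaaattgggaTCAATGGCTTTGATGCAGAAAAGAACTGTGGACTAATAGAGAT
Member 2 of the rising family of 3: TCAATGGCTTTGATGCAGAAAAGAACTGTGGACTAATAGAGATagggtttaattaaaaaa
Member 3 of the rising family of 3: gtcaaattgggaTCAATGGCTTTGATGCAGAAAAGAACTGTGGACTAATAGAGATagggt
The median M of the 3 members was -1.68, -1.77 and -1.83 on the uninduced arrays and -0.68, -0.64 and -0.63 on the induced arrays. The control arrays lay at -1.73, -1.73 and -1.71, within the uninduced range.

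The largest family had 13 probes of 12 distinct sequences, which share a run of 16 bases, in capitals in the 4 members shown.
Member 1 of the family of 13: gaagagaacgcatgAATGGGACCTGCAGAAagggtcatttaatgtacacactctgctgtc
Member 2 of the family of 13: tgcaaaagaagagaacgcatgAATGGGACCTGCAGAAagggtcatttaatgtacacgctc
Member 3 of the family of 13: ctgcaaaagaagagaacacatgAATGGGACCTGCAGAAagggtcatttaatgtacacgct
Member 4 of the family of 13: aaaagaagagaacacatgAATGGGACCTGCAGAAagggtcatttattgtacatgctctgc
All 13 passed the test as lower in induced cells, by -0.55 to -0.36 on the log2 scale, where 17.2% of all tested probes were lower. The median M of the family was 0.20, 0.11 and 0.08 on the uninduced arrays, -0.39, -0.33 and -0.22 on the induced arrays and -0.00, 0.01 and 0.04 on the control arrays. Probes this alike can bind the same labelled RNA, so the 13 readings are not independent. The next largest families had fewer called members. In the family of 11 probes 1 passed the test, as higher, and in the family of 10 probes none passed by limma (1 had an unadjusted p below 0.05), with log2 changes of -0.11 to 0.05. In the family of 9 probes 6 were lower, with a median log2 change of -0.23.

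Among the placed genes, 128 had a tested probe, and for each the brightest was used. Induced cells had higher signal at 14 and lower signal at 13, so that 21.1% passed the test against 38.2% of all tested probes. The placed genes were dimmer, with a median Cy3 intensity of 226 against 431 over all tested probes, and they were chosen by where probes lie and not by function. Their median absolute log2 change was 0.08, against 0.12 over all tested probes. Called or not, 42 of the 128 placed genes had induced and uninduced arrays that did not overlap, against 47.8% of all tested probes. The 26 genes described below are those of the 27 called that had no such overlap. The roles under which these 26 are grouped were set after the values were seen. The matched bases of 6 of them are printed to a length of 30, in the direction of the probe, to show where on the genome each reading comes from, with all coordinates in GRCm38.
Plet1, chr9:50505002-50505031, plus strand: ctactagcagatttccactgtgcccagacc
Slc22a20, chr19:5970301-5970330, minus strand: cccaagcccaagcagaaagctcaggaaggg
Zbtb8a, chr4:129354064-129354093, minus strand: ccggtgaatgggtttctcctactgacttag
Il17rc, chr6:113483106-113483135, plus strand: ctacactagaataaaagccgatacagtatt
Lamb2, chr9:108490426-108490455, plus strand: ccctagggcctagccttgtcgccaagcact
Dclre1b, chr3:103802887-103802916, minus strand: cagcagctcttctgaagcttttcatgaagt

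Of 3 genes grouped as surface, matrix and receptor proteins, 1 fell and 2 rose, where 17.2% of all tested probes were lower and 21% higher. The group was formed with the values known and holds only called genes, so it does not measure how such genes respond. Plet1 fell the most of all placed genes, and Lamb2 and Il17rc rose. Plet1 encodes a surface protein known from trophoblast and from epithelial progenitor cells. Its M was 2.93, 2.54 and 2.63 in uninduced cells and 1.28, 1.25 and 1.22 in induced cells, with the control clone at 2.28, 2.29 and 2.27. The induced arrays were the lowest of the 9, below the control clone, and the uninduced arrays the highest. The log2 change was -1.45 (SE 0.08, limma adjusted p = 1.12e-06), a 2.74-fold fall, and it made Plet1 the only placed gene past 2-fold. Without Tmx- replicate 1, the highest of the uninduced arrays, the change was -1.34, and within slide 2 it was -1.32.

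Lamb2 encodes the laminin beta 2 chain of basement membranes. It rose from M of -1.84, -1.80 and -1.79 to -1.44, -1.52 and -1.47 (log2 change 0.33, SE 0.04, limma adjusted p = 8.23e-05). The control arrays, at -1.54, -1.53 and -1.55, lay just below the induced arrays and above all uninduced ones. Il17rc, a subunit of the interleukin 17 receptor, was far below the reference throughout and rose from -2.49, -2.52 and -2.54 to -2.06, -2.12 and -2.14 (log2 change 0.41, SE 0.04, limma adjusted p = 3.95e-05). Here the control arrays, at -2.51, -2.41 and -2.45, were near the uninduced level.

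Of 4 genes for membrane transport, 2 fell and 1 rose, in a group too small to set against the 17.2% and 21% of all tested probes that did. Slc22a20, which encodes a transporter of organic anions, was at 0.73, 0.50 and 0.55 in uninduced cells. Its values of -0.03, -0.17 and -0.13 in induced cells were not well above background on any of the 3 arrays. Its log2 change was -0.70 (SE 0.08, limma adjusted p = 0.000125), but the size is not fixed by these data. It was -1.18 with offset 10 in the background correction in place of 50 and -2.58 with Agilent's processed signals. Slc12a4, a potassium-chloride cotransporter that takes part in control of cell volume, fell from -0.51, -0.45 and -0.46 to -0.85, -0.92 and -0.88 (log2 change -0.41, SE 0.04, limma adjusted p = 1.92e-05). Its control arrays, at -0.25, -0.27 and -0.24, were the highest of the 9. Tmc4, of the transmembrane channel-like family, rose from 0.07, -0.08 and -0.00 to 0.39, 0.39 and 0.36 (log2 change 0.38, SE 0.04, limma adjusted p = 8.99e-05), with the control arrays among the uninduced ones. Slc25a5, which exchanges ADP and ATP across the inner mitochondrial membrane, did not pass the test at a log2 change of -0.13 (limma adjusted p = 0.303).

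**Figure D3:**
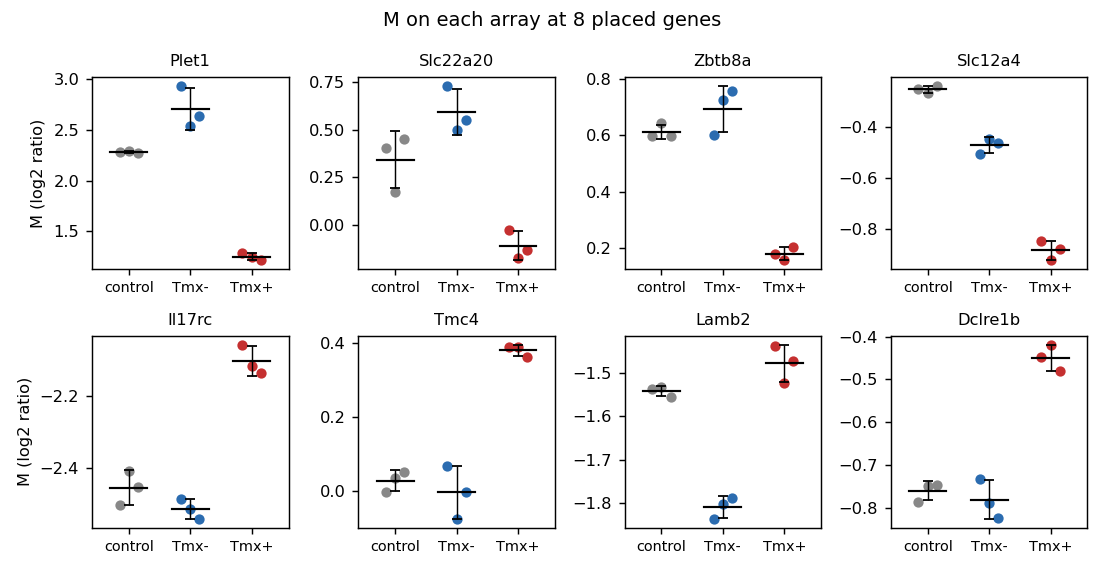
M of 8 placed genes on each array, with lines for the mean and bars for the SD (n = 3 per group); each panel has its own y axis. In the upper row the induced arrays lie below the uninduced and the control arrays, and in the lower row above the uninduced arrays.

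Of 3 placed genes of DNA repair and telomere maintenance, 2 rose. Dclre1b encodes Apollo, a nuclease that acts at telomere ends and in the repair of DNA crosslinks. Its M was -0.73, -0.79 and -0.82 in uninduced cells and -0.45, -0.42 and -0.48 in induced cells, so that it rose by 0.33 on the log2 scale (SE 0.04, limma adjusted p = 0.000105). The control arrays, at -0.79, -0.75 and -0.75, lay among the uninduced ones. Nabp2 encodes a protein that binds single-stranded DNA. It rose from -0.20, -0.27 and -0.30 to -0.02, -0.09 and -0.07, by 0.19 on the log2 scale (SE 0.04, limma adjusted p = 0.00377), and its control arrays, at -0.22 to -0.20, were close to the uninduced level. Gtf2h4, a subunit of the factor TFIIH that opens DNA in transcription and excision repair, did not pass the test at a log2 change of -0.09 (limma adjusted p = 0.161). The 3 genes were grouped with their values known, and 21% of all tested probes rose.

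Genes for C2H2, BTB and MYND zinc finger proteins moved in both directions, with 4 of 9 lower, 1 higher and 4 not passing the test, where 17.2% of all tested probes were lower and 21% higher. Zbtb8a, a member of the BTB class of zinc finger proteins, fell from M of 0.60, 0.72 and 0.75 to 0.18, 0.16 and 0.20 (log2 change -0.51, SE 0.05, limma adjusted p = 1.91e-05). The control arrays, at 0.60 to 0.64, were near the lowest uninduced array. Zbtb22, of the same class, rose from -0.48, -0.56 and -0.58 to -0.24, -0.26 and -0.35 (log2 change 0.26, SE 0.04, limma adjusted p = 0.00127). Its control arrays, at -0.36 to -0.35, were near the lowest induced array and above all uninduced ones.

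Zmynd10, a MYND-type zinc finger protein needed for motile cilia, fell by 0.39 on the log2 scale (SE 0.05, limma adjusted p = 0.000251), from 0.42, 0.42 and 0.37 to 0.01, 0.07 and -0.03, and by 0.80 with Agilent's processed signals. Bcl11a, a transcriptional repressor known from fetal hemoglobin silencing, fell by 0.31 (SE 0.10, limma adjusted p = 0.0327), though its control arrays alone spread from -1.14 to -0.68, wider than that change. Zfp512b fell by 0.13 (SE 0.04, limma adjusted p = 0.0332). Zfp433, Zfp595, Zfp976 and Zfp825 had log2 changes from -0.13 to 0.11 and limma adjusted p from 0.0904 to 0.881.

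A zinc finger of the Zscan4 type is joined to the next by a short conserved linker. Probes were searched for the codons of that linker, with any base at the last position of each codon, on their own strand and on the reverse. It occurred in 20 tested probes on their own strand and in 1 on the reverse, 0.0808% and 0.00404% of those tested. Of the 20, 4 were lower and 1 was higher, 25% against 38.2% of all tested probes, and the log2 changes ran from -0.41 to 0.18. The 2 with the largest falls are shown, with the linker codons in capitals.
First linker probe: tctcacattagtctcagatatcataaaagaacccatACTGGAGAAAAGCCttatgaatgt
Second linker probe: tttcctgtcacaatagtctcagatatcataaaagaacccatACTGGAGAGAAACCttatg
Their log2 changes were -0.41 (limma adjusted p = 0.0099) and -0.38 (limma adjusted p = 0.0013). Both belong to a family of 8 related probes, of which no other member was called. A match to these letters does not name the gene.

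Of 6 histone genes, 3 rose and 3 did not pass the test, where 21% of all tested probes were higher. H2bc11, for a histone H2B, rose from M of -0.45, -0.59 and -0.53 to -0.10, -0.09 and -0.14 (log2 change 0.41, SE 0.05, limma adjusted p = 0.000157), with the control arrays at -0.43, -0.55 and -0.55. H2ac18 rose by 0.17 and H4c3 by 0.13 on the log2 scale (limma adjusted p = 0.0302 and 0.0196), and these calls were lost under 12 and 10 alternatives. H2bc15, at 0.36, did not pass (limma adjusted p = 0.0873), and its uninduced arrays were at -1.23, -0.53 and -0.65, with Tmx- replicate 1 apart. H4c8 and H3f3a had log2 changes of -0.05 and 0.01. Histone genes occur in near-identical copies, so that each of these probes may read several of them.

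The other named genes changed little. Mllt6, which encodes a chromatin-associated PHD finger protein, fell by 0.23 on the log2 scale (SE 0.04, limma adjusted p = 0.00221), and Abhd6, a monoacylglycerol lipase, by 0.18 (SE 0.05, limma adjusted p = 0.0193). Ppp2r3c, a regulatory subunit of protein phosphatase 2A, and Ciao2b, of the cytosolic iron-sulfur assembly machinery, each rose by 0.18 (limma adjusted p = 0.0116 and 0.0358). Gstp1, a glutathione S-transferase with close copies, rose by 0.15 (limma adjusted p = 0.0259). Genes with only a clone or model name were not sorted by role, so that the groups above may lack members. Of these, 4930522L14Rik and the long noncoding Gm36449 rose by 0.22 and 0.19, and the long noncoding Gm9828 and the coding 4930563E22Rik fell by 0.21 and 0.11. The long noncoding C130046K22Rik fell by 0.21 (limma adjusted p = 0.0134) but was not well above background on any induced array, and with Agilent's processed signals the change was -1.09.

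**Figure D4:**
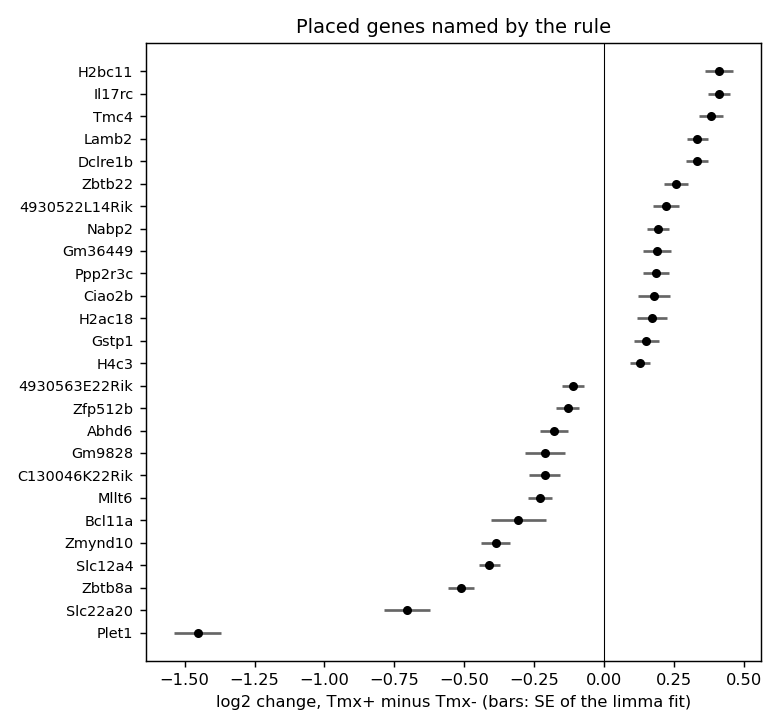
Log2 change from uninduced to induced cells of the 26 named genes, with the SE of the limma fit. Plet1 at -1.45 lies apart from the other 25, which run from -0.70 to 0.41; the changes of Slc22a20 and C130046K22Rik are measured values at probes not well above background in induced cells.

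Calls of the smaller changes depended on the processing. Plet1, Slc22a20, Zbtb8a, Slc12a4, Zmynd10 and H2bc11 passed the test under each of up to 23 alternatives that gave a value. The alternatives reuse the same arrays and are not independent checks. Equalizing intensity between arrays (Aquantile) does not act on the ratios, so every log2 change and adjusted p stayed as in the main fit. That alternative could not lose a call and checks nothing here. Il17rc, Tmc4, Lamb2, Dclre1b and Mllt6 lost their call under 1, the Cy3 channel without the reference, and Zbtb22 under 2. Nabp2 and Gm36449 lost it under 3, and 4930522L14Rik and C130046K22Rik under 4. Abhd6 lost it under 5 and Ppp2r3c under 7. The calls of H4c3, Gm9828, Zfp512b, Ciao2b, H2ac18, Bcl11a, Gstp1 and 4930563E22Rik were lost under 10 to 14. No named gene changed direction under these alternatives, but for many of them this was fixed in advance. Some keep the log2 changes of the main fit, and leaving out arrays cannot turn the sign where the groups do not overlap.

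Placed genes of the ribosome and of respiration did not pass the test at their brightest probe. Of all placed genes 21.1% passed, and of all tested probes 38.2%. Groups of 5 and 4 genes, formed after the values were seen, are too small to set against those shares. Of 5 genes for proteins of cytosolic or mitochondrial ribosomes or closely like them, Rpl38, Rpl10a, Rps27l, Fau and Mrps21, none was called by limma, with log2 changes of -0.02 to 0.18 and adjusted p from 0.112 to 0.745, and 0 had an unadjusted p below 0.05. A second, dimmer probe of Rpl38 was higher by 0.23 (limma adjusted p = 0.00223) where the brighter one was higher by 0.07 (limma adjusted p = 0.352), so that the probes of this gene disagree, and ribosomal protein genes have many processed copies. Of 4 subunits of respiratory complex I, Ndufa9, Ndufa11, Ndufa13 and Ndufb11, none was called by limma, with log2 changes of -0.08 to 0.16 and adjusted p from 0.0543 to 0.275, and 1 had an unadjusted p below 0.05.

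A further placed probe fell past 2-fold but has no single gene on its strand. It lies at chr5:137612512-137612571 in the span of Fbxo24, an F-box gene whose strand the tables do not give, and was singled out after its values were seen. Its M was 0.23, -0.03 and 0.03 in uninduced, -1.04, -1.02 and -0.87 in induced and -0.21, -0.28 and -0.24 in control cells. The induced arrays were the lowest of the 9, and the log2 change was -1.05 (SE 0.07, limma adjusted p = 2.81e-06).

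Where the changed probes ended relative to the control clone differed between rises and falls. All 198 probes that fell at least 2-fold ended with their induced mean below the lowest control array. Of these, 112 had started above the highest control array, 21 within the control range and 65 already below it. Of the 105 that rose at least 2-fold, 94 ended above the highest control array, 3 within the range and 8 below it. Of the 94, 32 had started above the control range, 10 within it and 52 below it. The control clone differs in transgene, clone and days of culture together, and its arrays shared no slide with the induced arrays. These are therefore positions and not effects.

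Some probes crossed the background in 1 group only. On all 3 induced arrays and on no uninduced array, 56 probes were well above background, of which 49 were called higher. The reverse held at 112 probes, of which 66 were called lower. Being chosen for brightness in 1 group largely fixes the direction of these calls, so they are not to be read against the 21% and 17.2% of all tested probes that were higher and lower. The other 7 and 46 did not pass the test. The sizes of the changes are uncertain, since the dimmer group was near background.

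The share of probes called depended on brightness and base composition. In 5 equal groups of probes by mean intensity, from dim to bright, 20.9%, 33.9%, 45%, 48.4% and 42.9% of probes were called. Of the 1354 probes with a GC content of 60% or more 19.5% were called, against 42.2% of the 5743 with 35% to below 40%. Those GC-rich probes were also dimmer, with a median log2 intensity of 8.0 against 9.71. Whether GC content acts apart from brightness was not tested.

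**Figure D5:**
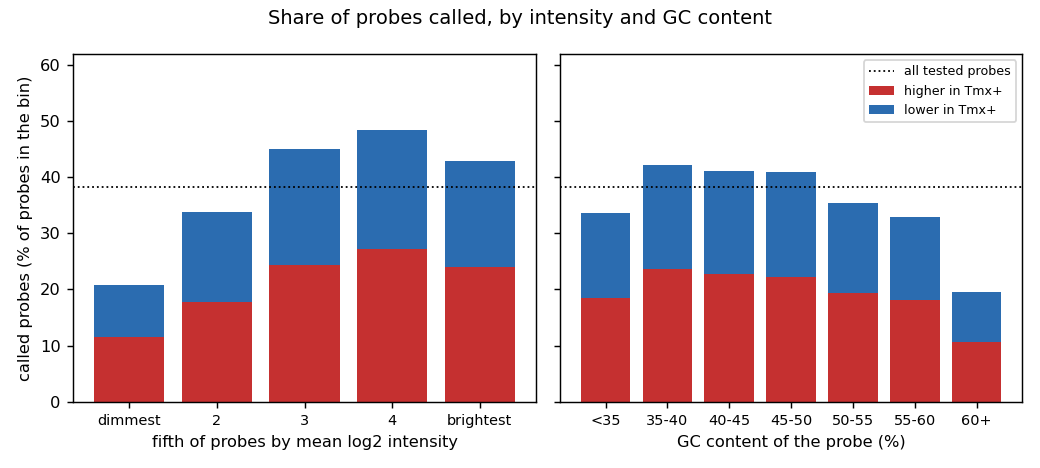
Share of tested probes called higher (red) and lower (blue) in induced cells, in 5 groups by mean intensity and by GC content of the probe; the dotted line is the 38.2% of all tested probes. The share is lowest in the dimmest group, at 20.9%, and in probes of at least 60% GC, at 19.5%.

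The polyadenylation hexamer AATAAA, which lies near the end of most messenger RNAs, occurred in 1902 tested probes, 7.68%, and its reverse complement TTTATT in 790, 3.19%. Probes with AATAAA were called at 44.9% and those with TTTATT at 39.5%, against 38.2% of all tested probes. Probes with another AT-rich run, ATTTA, were called at 41.4%. Base composition was not held equal, so what the hexamer itself adds was not tested. Within the same 5 groups, from dim to bright, the share called with AATAAA was 23.8%, 43.7%, 48.6%, 50.8% and 48.1%, and without it 20.7%, 33.3%, 44.8%, 48.2% and 42.2%. Higher and lower calls both contributed, with 24.8% higher and 20.1% lower over all probes with the hexamer. Their median log2 change was 0.01, like that of all tested probes.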

How the data were processed

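Per the file headers, Agilent Feature Extraction 9.5.1.1 made the deposited intensity values, given as mean spot intensity and median local background in Cy3 and Cy5. The deposited log10 ratios and value table, per the file headers and by comparison with each array, were used only as alternatives, with the sign of the scanner ratio (red over green) turned. The value table is on a log10 scale with array medians of 2.17 to 2.19, its differences between arrays follow the sign-turned ratio (slope 1.00), and its centring is not known. Other steps of the authors are not given in the sources used here.

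Background was corrected with normexp (offset 50), and arrays were normalized by loess with the 1417 control spots at weight 0 (limma 3.58.1, R 4.3.3). Spots of 1 probe were averaged, and outlier spots (4 to 16 per array) left out. No spot was saturated. Offset 50 draws dim fold changes toward 0. All 9 arrays entered 1 fit (lmFit, eBayes), and the tests are two-sided, adjusted by Benjamini-Hochberg over 24758 probes. The smallest p an exact test of 3 against 3 allows is 0.1. The number of arrays limits the precision. Single channels were taken after loess and Aquantile and, without dye swaps, are open to dye bias. The steps were tested on simulated data.

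Positions came from exact matches of at least 25 bases at a window edge, or of all 60, to 32851 RefSeq windows. Named genes were the 15 largest rises and 15 largest falls among placed genes with adjusted p below 0.05, no overlap and signal well above background; 14 and 12 met this. For probes without names, 2 rises and 2 falls are given by ID. Families used blastn 2.17.0. The members, gene lists and rules were chosen with earlier results of these data known. The gene lists could not be counted, because too few members were placed.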

Additional observations from a re-analysis of the deposited data

How the results depend on the processing

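No named probe or gene changed direction under the alternatives run. Many of these could not turn a sign, since they keep the main log2 changes or leave out arrays from groups chosen not to overlap. The main counts were 5204 higher and 4260 lower probes, 105 and 198 at least 2-fold, and 14 and 13 placed genes. Offset 10 gave 197 probes at least 2-fold higher. Agilent's processed signals, median centred, gave 2651 higher probes, 285 and 600 at least 2-fold, and 7 and 25 placed genes. Median centring in place of loess gave 2658 lower probes and 8 and 7 placed genes. The Cy3 channel alone gave 1165 and 1310 probes and 1 and 5 placed genes, with a median SE of 0.119 against 0.0552. Without a filter on dim probes, 8 placed genes were lower. The deposited value table, which holds other probes, gave 3088 and 2823 probes, 337 and 398 at least 2-fold, and 8 placed genes higher. The deposited log ratio, tried after the data were seen, gave 375 and 487 at least 2-fold, and full-length matches only, also added then, 6 placed genes higher. Leaving out 1 array at a time gave 4209 to 6357 higher and 3429 to 4597 lower probes, 92 to 126 and 178 to 209 at least 2-fold, and 9 to 16 and 9 to 14 placed genes; the 9 higher placed genes were those without Tmx+ replicate 1.

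Replicate numbers did not pair the arrays: deviations of same-numbered arrays correlated at -0.16, -0.40 and 0.17. With the replicate block, 4668 probes were higher and 3808 lower. Slide position as a block and leaving out the position 4 arrays, both added after the data were seen, gave 5058 and 5615 higher probes. The alternatives for the gene lists were not run, since 1 listed gene could be tested. The causes were not tested. Signal over background limits the size of changes at dim probes.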

Other observations

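A further 144 placed genes were not tested, because no probe of theirs was well above background on all 3 arrays of any group. At 91 of them no array of the 9 was well above background, and at the other 53 some were, up to 6 of 9. The 91 include genes of specialised tissues: Pomc, the precursor of pituitary peptide hormones, Retn, the fat cell hormone resistin, Crygs, a crystallin of the lens, and Cyp3a11, a cytochrome P450 of liver. Olfactory receptor genes made up 30 of the 144, and for 25 of the 30 no array had signal well above background. Hspa1a, the stress-induced chaperone of the HSP70 family, gave such signal on 0 of 9 arrays. Acta2, the smooth muscle actin, was so on 1 array of 9. These examples were picked by name. Probes in genes not known for a specialised tissue lacked signal too. Those in Psme2 and Rbbp5 were well above background on 0 of 9 arrays, and those in Vcp and Hnrnpa1 on 2 of 9. These are limits of detection at these probes and do not show that a gene was silent.

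Cfap410, a gene of ciliary function, had the largest positive log2 change among placed genes, 0.64 (SE 0.39), and did not pass the test (limma adjusted p = 0.239). Its M was -1.83 on Tmx- replicate 1 and 0.02 and -0.11 on the other uninduced arrays, against 0.14, -0.03 and -0.11 on the induced arrays.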
